A study of Homo sapiens with 4 samples.

Results

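The chromatin of 6 genes that encode STAT transcription factors (STAT2, STAT3, STAT4, STAT5A, STAT5B and STAT6) was described from ATAC-seq peak lists of HK1 cells. ATAC-seq reads where a transposase can insert into DNA, and HK1 is an established line of human nasopharyngeal carcinoma cells. The genotypes were WT and FLI1 knockout (sgFLI1, FLI1-KO), each as untreated control or with IFN-γ (interferon-γ), so the groups were WT and sgFLI1, and their treated counterparts WT-IFN-γ and sgFLI1-IFN-γ. Each group held 1 peak list. FLI1 is a transcription factor of the ETS family, and whether the knockout cells were a clone or a pool is not given in the sources used here. The peak lists measure no transcript or protein of FLI1 and so give no check of the knockout. A peak was counted at a STAT gene where it overlapped, by at least 1 bp, the GENCODE gene on GRCh38 or the 10 kb upstream of it. That rule gave 21 of 59629 peaks in WT cells (23 of 67470 with IFN-γ) and 24 of 63203 peaks in FLI1-KO cells (17 of 59923 with IFN-γ), which merged into 34 separate regions.

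STAT proteins lie in the cytoplasm until a cytokine receptor and its Janus kinases (JAKs) phosphorylate them, after which they pair, enter the nucleus and bind DNA. STAT2 acts mainly downstream of type I and type III interferons, in a complex with IRF9. STAT3 serves the IL-6 family, STAT4 serves IL-12 and is best known in T and NK cells, STAT5A and STAT5B serve prolactin, growth hormone and IL-2, and STAT6 serves IL-4 and IL-13. The genes of STAT3, STAT5A and STAT5B stand side by side on chromosome 17, and STAT5A and STAT5B are closely related copies.

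The values given below are tags, the number of extended reads that cover a peak's summit, recovered from the peak caller's fold enrichment and p-value. The median peak had 31 tags in WT cells (30 with IFN-γ) and 27 in FLI1-KO cells (26 with IFN-γ), and the lowest had 7 to 8. Libraries were compared after division by their tag density, which was 8.04 tags per kb in WT cells (8.84 with IFN-γ) and 6.93 in FLI1-KO cells (6.86 with IFN-γ). With 1 library a group the spread between replicates is unknown, and groups were not tested against each other. Ratios therefore carry an exact 95% interval for counting error only, and an interval that leaves out 1 shows that the libraries differed, not the conditions. The intervals were not adjusted for their number. A change in the share of cells with an open site and a change in openness per cell cannot be told apart in such bulk libraries. Of 7 epithelial marker genes, 3 (EPCAM, KRT8 and KRT18) had their start inside a peak in each list, while CDH1, KRT5, KRT14 and TP63 did not. None of 4 markers of blood, stromal and endothelial cells (PTPRC, CD3E, COL1A1, PECAM1) had one. The marker list was written after the data were seen.

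Sequences of 201 bp around 7 summits are shown, of which STAT2 and STAT3 are the strongest open promoters and the others are regions described below for differences between libraries. All are from the forward strand of GRCh38, with the summit of the library with the strongest peak at the middle base. Capitals mark matches, on either strand, to 4 motifs. GAAANNGAA is a paired site of the kind bound by IRF factors. TGANTCA is the site of AP1 factors. GGGCGG is known as the GC box. CCAAT is known as the CCAAT box.
STAT2 promoter, chr12:56360216-56360416: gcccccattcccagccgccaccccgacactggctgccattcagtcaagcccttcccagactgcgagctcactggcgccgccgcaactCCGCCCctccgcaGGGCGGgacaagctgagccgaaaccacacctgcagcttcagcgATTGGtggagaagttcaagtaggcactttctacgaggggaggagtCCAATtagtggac
STAT3 promoter, chr17:42388591-42388791: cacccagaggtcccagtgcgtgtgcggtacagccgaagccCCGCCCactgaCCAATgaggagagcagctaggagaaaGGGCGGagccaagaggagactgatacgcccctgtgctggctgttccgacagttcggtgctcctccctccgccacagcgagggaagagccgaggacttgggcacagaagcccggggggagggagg
STAT4 intron 14, first region, chr2:191041809-191042009: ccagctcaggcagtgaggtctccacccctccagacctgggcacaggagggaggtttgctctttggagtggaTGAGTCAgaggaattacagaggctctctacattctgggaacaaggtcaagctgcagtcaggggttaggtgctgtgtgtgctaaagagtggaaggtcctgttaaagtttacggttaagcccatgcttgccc
STAT4 intron 14, second region, chr2:191050412-191050612: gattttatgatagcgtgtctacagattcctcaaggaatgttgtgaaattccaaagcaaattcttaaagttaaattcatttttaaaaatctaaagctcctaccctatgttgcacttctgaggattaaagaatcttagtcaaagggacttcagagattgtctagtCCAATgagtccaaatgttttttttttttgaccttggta
STAT5A intron 4, chr17:42294590-42294790: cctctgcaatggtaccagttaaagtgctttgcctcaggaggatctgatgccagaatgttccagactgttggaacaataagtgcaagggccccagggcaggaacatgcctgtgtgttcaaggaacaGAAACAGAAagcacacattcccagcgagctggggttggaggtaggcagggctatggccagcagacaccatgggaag
Downstream of STAT5A, chr17:42312204-42312404: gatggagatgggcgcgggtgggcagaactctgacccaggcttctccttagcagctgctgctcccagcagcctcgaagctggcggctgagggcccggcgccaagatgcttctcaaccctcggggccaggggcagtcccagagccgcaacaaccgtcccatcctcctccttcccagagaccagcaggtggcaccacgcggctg
Upstream of STAT6, chr12:57127590-57127790: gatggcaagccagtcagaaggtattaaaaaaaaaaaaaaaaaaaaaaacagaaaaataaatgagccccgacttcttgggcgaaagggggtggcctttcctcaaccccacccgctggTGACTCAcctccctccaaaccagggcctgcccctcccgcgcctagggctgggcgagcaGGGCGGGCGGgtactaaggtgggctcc

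The canonical starts of STAT2, STAT3, STAT5B and STAT6 lay inside a peak in all 4 lists, and those of STAT4 and STAT5A lay inside none. Over 19617 protein-coding genes, 55.2% to 57.0% of canonical starts were covered, according to the list. No annotated start of STAT4 (of 6) or of STAT5A (of 9) was covered in any list. The peak nearest to the STAT4 start stood 4781 to 4859 bp upstream, with 17 tags in WT cells (15 with IFN-γ) and 20 in FLI1-KO cells (15 with IFN-γ). At STAT5A the nearest summit differed by list, at 11649 bp upstream in WT cells and 11644 bp upstream in FLI1-KO cells, which is the STAT5B promoter. With IFN-γ it was 5466 bp upstream in WT cells and 3410 bp downstream in FLI1-KO cells. The absence of a peak at a start says that it did not pass the peak caller's cutoff at this depth. It is no measure of the gene's transcript, which was not analysed here.

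**Figure D1:**
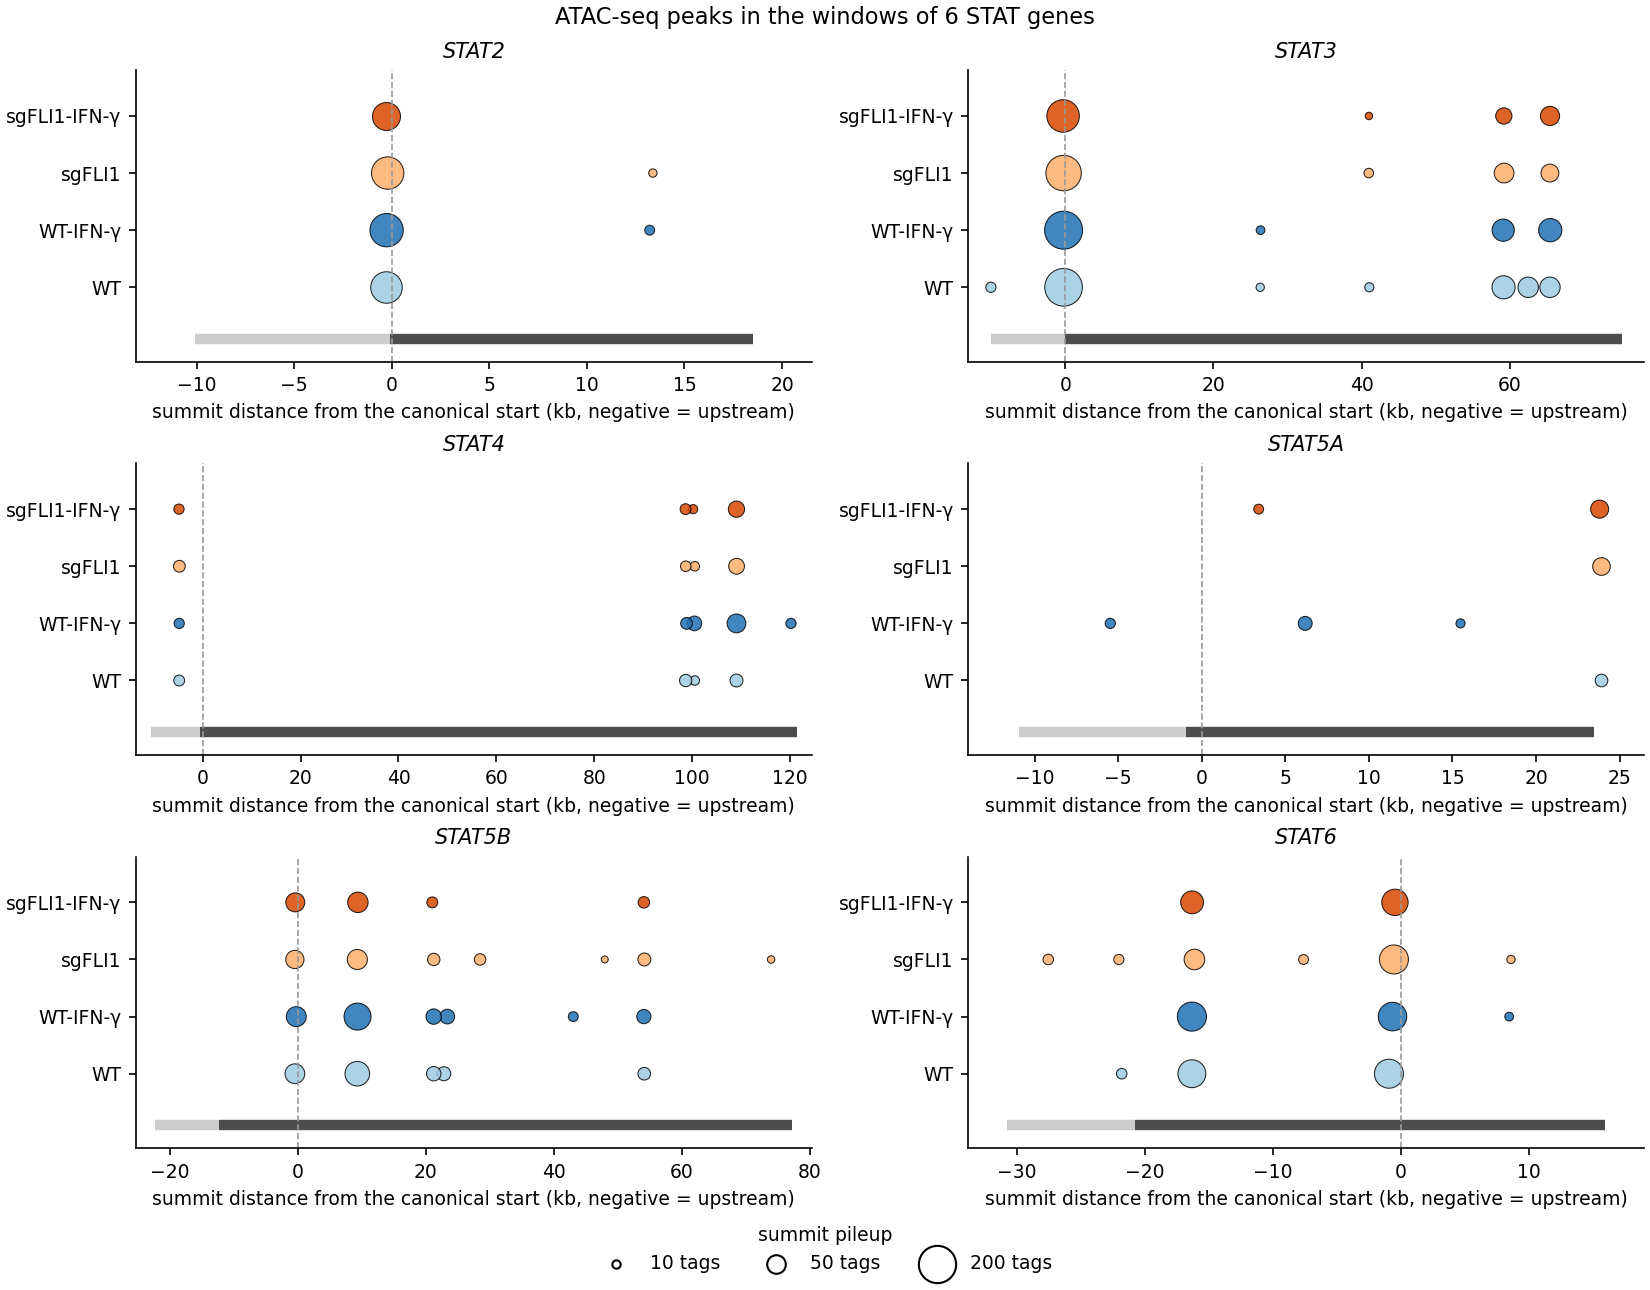
Peaks at the 6 STAT genes. The x axis gives each summit's distance from the canonical start in kb (dashed line at 0), each row is 1 library, circle area is the summit pileup in tags, and the dark and light bars are the gene and its 10 kb upstream. Each region is drawn under 1 gene. STAT2, STAT3, STAT5B and STAT6 have a peak at the start in all 4 libraries, and STAT4 and STAT5A have none there.

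The STAT3 promoter was the strongest STAT region in every list. Its summit, 248 to 313 bp upstream of the start, had 204 tags in WT cells (208 with IFN-γ) and 181 in FLI1-KO cells (152 with IFN-γ), at percentile 99.1 to 99.6 of the list by q-value. Per tag density these are 25.4, 23.5, 26.1 and 22.2, so the libraries lay close together. The ratio of WT-IFN-γ to WT was 0.928 (0.761 to 1.13) and that of sgFLI1-IFN-γ to sgFLI1 was 0.849 (0.679 to 1.06). The sequence printed above has 2 GC boxes and 1 CCAAT box within 100 bp of the summit.

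The STAT2 promoter had 143 tags in WT cells (160 with IFN-γ) and 151 in FLI1-KO cells (113 with IFN-γ). STAT2 is itself known as an interferon-responsive gene, and its promoter was already at percentile 97.8 in untreated WT cells. With IFN-γ the ratio was 1.02 (0.808 to 1.28) in WT cells and 0.756 (0.587 to 0.971) in FLI1-KO cells. The second interval leaves out 1, but the median over all peaks shared by that pair of lists was itself below 1 (a log2 ratio of -0.14, against -0.40 here). The printed STAT2 window holds 2 GC boxes, which begin 13 bp before and 0 bp after the summit, 2 CCAAT boxes and no GAAANNGAA.

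The STAT6 promoter had 121 tags in WT cells (117 with IFN-γ) and 121 in FLI1-KO cells (100 with IFN-γ), in a wide peak whose merged length was 2400 bp. The STAT5B promoter was the weakest of the 4 open ones, with 56 tags in WT cells (57 with IFN-γ) and 48 in FLI1-KO cells (52 with IFN-γ). For both genes every interval of the 4 ratios between libraries held 1. In the IFN-γ comparisons the intervals at STAT6 were 0.677 to 1.14 in WT and 0.634 to 1.10 in FLI1-KO cells. At STAT5B they were 0.629 to 1.36 and 0.725 to 1.66. The counts do not tell apart the ratios within an interval. In WT-IFN-γ the STAT5B promoter peak also touched the upstream window of STAT5A, by an edge, and it is counted once.

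**Figure D2:**
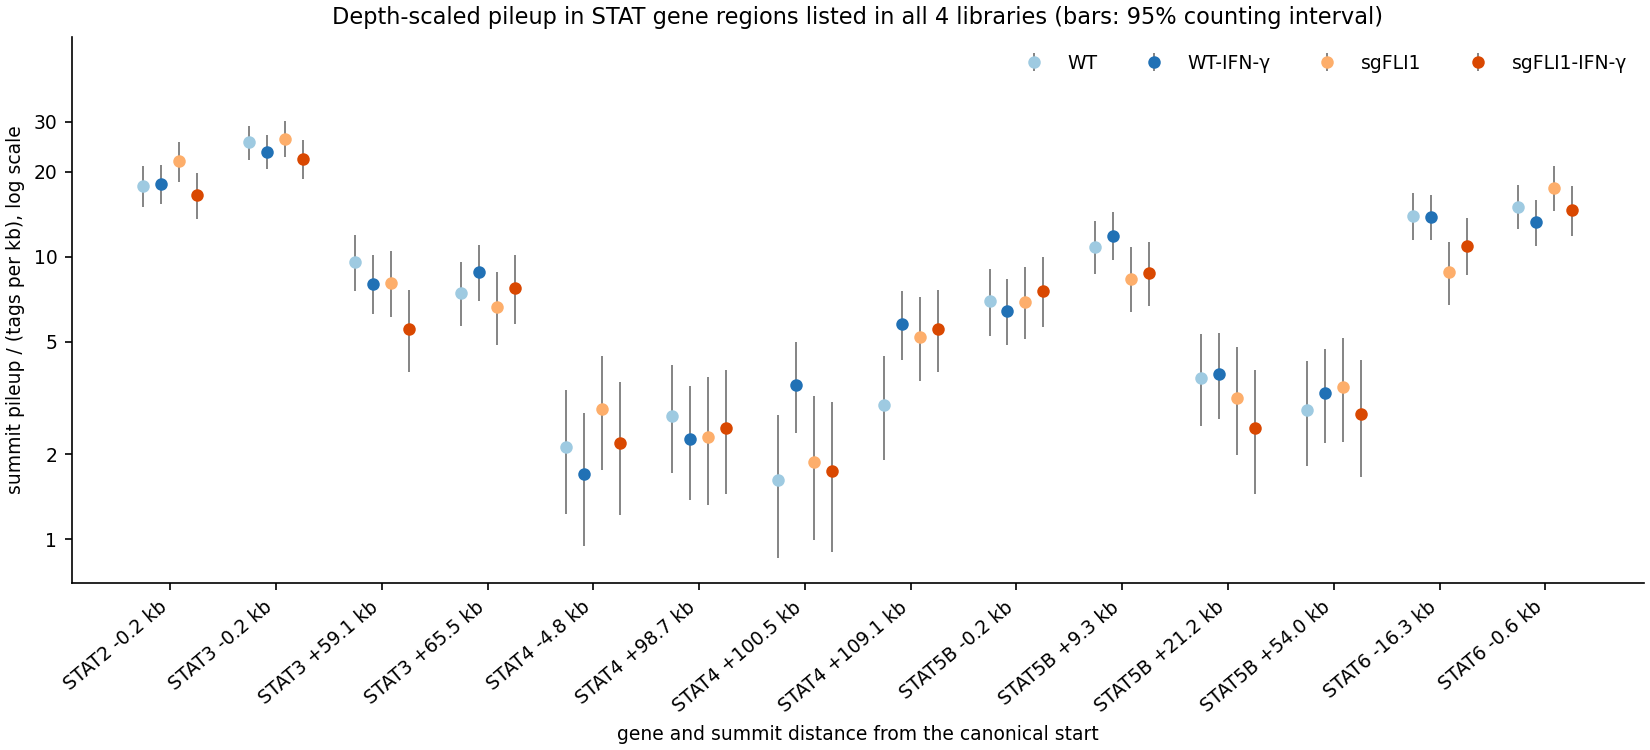
Depth-scaled signal of the 14 STAT regions listed in all 4 libraries. The y axis is the summit pileup divided by the library's tag density (log scale), points are the 4 libraries and bars are 95% counting intervals. The STAT3 promoter lies at 22.2 to 26.1 in every library, and WT stands below the other 3 libraries in STAT4 intron 14 (+109.1 kb).

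Of the 34 STAT regions, 14 (41.2%) were listed in all 4 libraries, against 43.9% of 93211 regions over the whole genome. Single-library regions numbered 5 (14.7%) for WT-IFN-γ, against 11.6% of all regions, and 5 (14.7%) for sgFLI1, against 8.66%. They numbered 2 (5.88%) for WT, against 5.93%, and 1 (2.94%) for sgFLI1-IFN-γ, against 6.13%. By gene, with WT cells first, then WT with IFN-γ, FLI1-KO and FLI1-KO with IFN-γ, STAT2 had 1, 2, 2 and 1 peaks and STAT3 had 7, 4, 4 and 4. STAT4 had 4, 5, 4 and 4, and STAT5A had 1, 4, 1 and 2. STAT5B had 5, 8, 7 and 5, and STAT6 had 3, 3, 6 and 2. The windows of STAT5A and STAT5B share 4 regions, each of which lies in 1 of the genes and, at least by an edge, in the 10 kb upstream of the other. At a −log10 q of at least 5 the totals were 16, 18, 18 and 14.

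The comparison of WT-IFN-γ with WT asks which STAT regions opened with the cytokine in cells that have FLI1. Of the 23 STAT peaks in WT-IFN-γ, 7 (30.4%, Wilson 95% interval 15.6 to 50.9%) had no WT peak, against 25.2% of all peaks of that list. Conversely, 5 of 21 WT peaks (23.8%, 10.6 to 45.1%) were absent after IFN-γ, against 15.9%. Both intervals hold the share over all peaks, so neither stood apart from the list. The 7 gained peaks were spread over STAT2, STAT4, STAT5A, STAT5B and STAT6, and STAT3 had none. All 7 ranked below their list's median by q-value, with a median of 14 tags.

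The same comparison in FLI1-KO cells gave fewer gained STAT peaks. Of the 17 STAT peaks in sgFLI1-IFN-γ, 1 (5.88%, 1.05 to 27.0%) had no counterpart in sgFLI1, against 18% of the list, and it lay in STAT5A intron 3 with 14 tags. Of the 24 in sgFLI1, 8 (33.3%, 18.0 to 53.3%) had none after IFN-γ, against 22.2%. The lost peaks were 4 at STAT6, 3 at STAT5B and 1 at STAT2, with 7 to 19 tags each. At STAT6, those 22030 and 27546 bp upstream of the canonical start lay outside the gene, in its upstream window. The intervals of both shares also hold the background share, with the same limits. Whether the count of gained peaks differs between WT and FLI1-KO cells was not tested.

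Between genotypes, 7 of 24 sgFLI1 peaks (29.2%) had no WT peak, against 25.3% of the list, and 4 of 21 WT peaks (19.0%) had no sgFLI1 peak, against 21.4%. After IFN-γ, 3 of 17 sgFLI1-IFN-γ peaks (17.6%) had no WT-IFN-γ peak, against 19.8%, and 9 of 23 WT-IFN-γ peaks (39.1%, 22.2 to 59.2%) had no sgFLI1-IFN-γ peak, against 29%. The 9 were 3 in the STAT5A window, 2 others at STAT5B and 1 each at STAT2, STAT3, STAT4 and STAT6. The sgFLI1-IFN-γ library has the lowest tag density of the 4, and the part of depth in this count was not tested: thinning cannot add peaks that a shallow library missed, and it moved the median of 21 draws for none of the STAT counts.

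**Figure D3:**
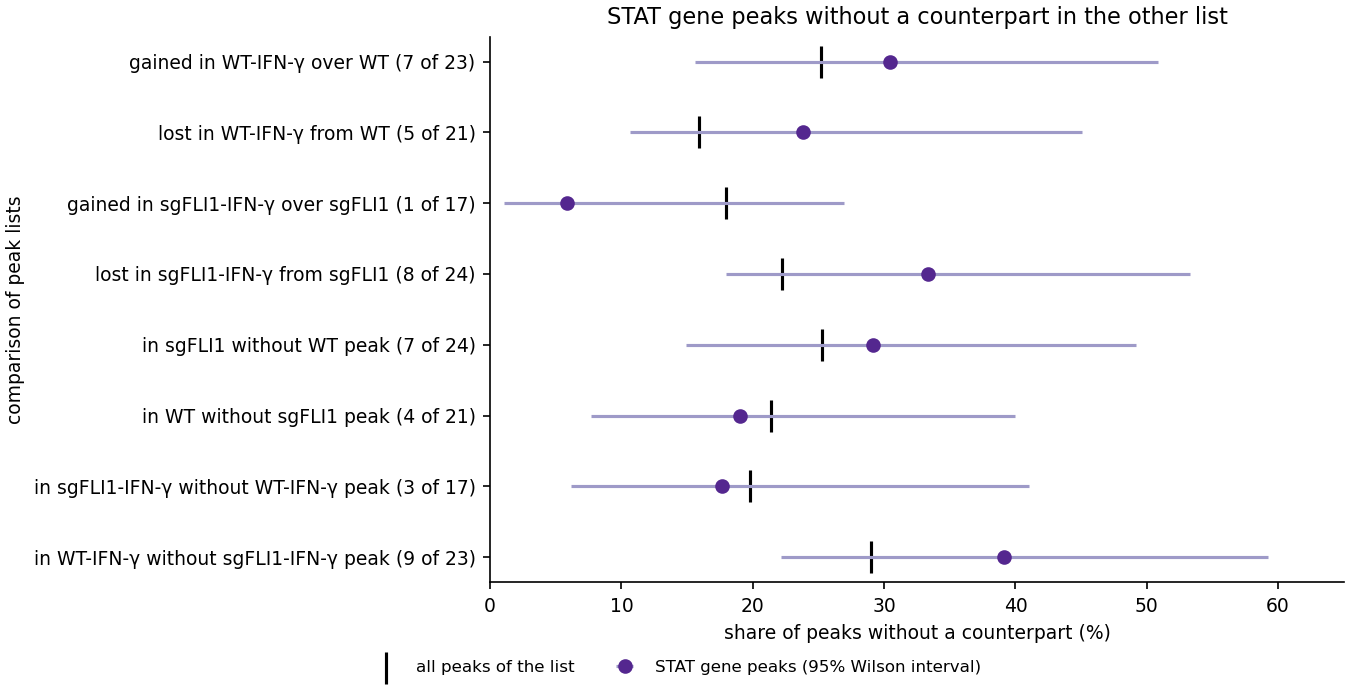
Share of STAT gene peaks without a counterpart in the other list of each pair. The x axis is the share in %, points are STAT peaks with 95% Wilson intervals, and vertical marks are the share over all peaks of the same list. Each interval holds the mark of its list, and the lowest point is 1 of 17 for sgFLI1-IFN-γ over sgFLI1.

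Among peaks shared one to one, the STAT regions were set as a group beside all shared peaks. From WT to WT-IFN-γ the median log2 ratio over 16 STAT regions was 0.01, against -0.07 over 49258 shared peaks. Past 1.5-fold, 2 STAT regions were higher and 0 lower, where 6.12% of all shared peaks were higher and 7.22% lower. From sgFLI1 to sgFLI1-IFN-γ the median over 16 was -0.17, against -0.14 over 48175, with 0 STAT regions higher and 1 lower, against 2.43% and 6.87%. From WT to sgFLI1 the median over 17 was 0.12, against 0.05 over 45942, with 2 higher and 1 lower, against 12.8% and 8.39%. From WT-IFN-γ to sgFLI1-IFN-γ the median over 14 was -0.16, against -0.02 over 46911, with 0 higher and 2 lower, against 10.5% and 10.7%. Neighbouring regions of 1 gene are not independent of each other, and the pairs share libraries.

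Both STAT regions that were past 1.5-fold higher from WT to WT-IFN-γ lay in intron 14 of STAT4, a gene with no peak at its start. The first had 24 tags in WT cells (51 with IFN-γ) and 36 in FLI1-KO cells (38 with IFN-γ). WT was the low library, and the other 3 lay at 5.19 to 5.77 per tag density against 2.98 in WT. The ratio with IFN-γ was 1.93 (1.17 to 3.29) in WT cells, at percentile 98.0 of the shared peaks of that pair, and 1.07 (0.658 to 1.73) in FLI1-KO cells. Untreated sgFLI1 was also above untreated WT, with a ratio of 1.74 (1.01 to 3.05).

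The second STAT4 region, 8603 bp nearer to the start, had 13 tags in WT cells (31 with IFN-γ) and 13 in FLI1-KO cells (12 with IFN-γ). Here WT-IFN-γ alone was high. Its ratio to WT was 2.17 (1.10 to 4.52), the ratio in FLI1-KO cells was 0.933 (0.389 to 2.22), and sgFLI1-IFN-γ against WT-IFN-γ gave 0.499 (0.233 to 0.999). The sgFLI1-IFN-γ summit stood 100234 bp after the start, against 100568 bp in sgFLI1 and 100482 bp in WT-IFN-γ. Its peak lay outside the printed window, so ratios with that library compare summits at different places in overlapping peaks. The third region of that intron did not share the pattern, at 22, 20, 16 and 17 tags.

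The local background that the peak caller set was higher with IFN-γ in WT cells under all 3 STAT4 summits, the third included, where the tags were not higher. In WT cells it was 3.06 tags, and 4.95 with IFN-γ, at the first region, 3.36 and 5.41 at the second, and 3.24 and 5.55 at the third, which is 1.46 to 1.56 times as high per tag density. In FLI1-KO cells the 3 backgrounds were 3.47, 2.20 and 2.14 without IFN-γ and 3.20, 2.45 and 2.60 with it. As fold enrichment over that background, the WT-IFN-γ to WT ratios were 1.42 and 1.56 at the first and second regions and 0.591 at the third. The first region's printed sequence has an AP1 match, TGAGTCA, that begins 29 bp before the summit.

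**Figure D4:**
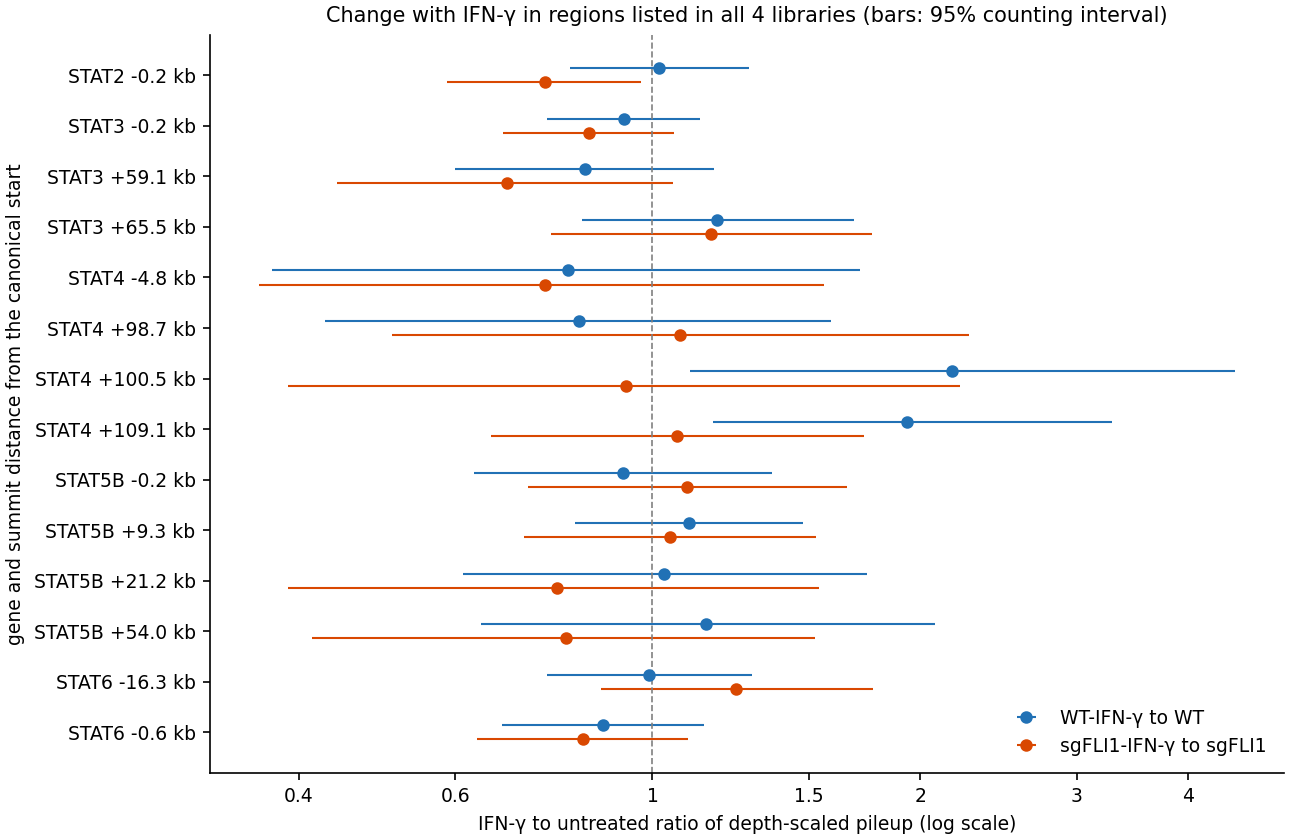
IFN-γ to untreated ratio of depth-scaled pileup (x axis, log scale) for STAT regions listed in all 4 libraries, in WT (blue) and FLI1-KO cells (orange). Bars are 95% counting intervals and the dashed line is a ratio of 1. STAT4 intron 14 at +109.1 and +100.5 kb stands at 1.93 and 2.17 in WT cells, with intervals to the right of the line.

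STAT5A had no region of its own that was listed in all 4 libraries. The strongest of its peaks that stood in 1 list lay in intron 4, with 28 tags in WT-IFN-γ over a background of 4.02. Scaled to the other libraries it would have stood at 21.7 to 25.5 tags, and 10 to 11 tags over the scaled background would have been enough to be listed there. It ranked at percentile 46.8 of its list. Its sequence, printed above, holds GAAANNGAA as GAAACAGAA, 25 to 33 bp after the summit, a match that 16.9% of the 16999 peaks gained in WT-IFN-γ and 9.09% of the whole list have. Of the 7 gained STAT peaks it was the 1 with that match.

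A region at the 3′ end of STAT5A, with its summit between that end and the 3′ end of STAT3, was listed in 3 libraries. It had 23 tags in WT cells and 45 in FLI1-KO cells (47 with IFN-γ), and no peak was listed there in WT-IFN-γ. Both FLI1-KO libraries were thus high and close together. Scaled from WT, WT-IFN-γ would have had 25.3 tags, and 12 would have sufficed to be listed. Scaled from the FLI1-KO libraries, it would have had 57.4 to 60.5 tags, and 17 to 18 would have sufficed. The ratio of sgFLI1 to WT was 2.27 (1.34 to 3.93), at percentile 97.7 of shared peaks, and with IFN-γ the ratio within FLI1-KO cells was 1.06 (0.686 to 1.63). The background rose as well, from 3.75 to 5.93 tags, and as fold enrichment the ratio of sgFLI1 to WT was 1.31. Among STAT peaks without a counterpart in any pair, that of sgFLI1-IFN-γ here was the 1 that ranked above its list's median (percentile 74.2). Its printed window is 67.2% G and C and holds none of the motifs searched.

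STAT5B had the most regions. Its strongest was not the promoter but a site in intron 1, 9323 bp after the start, with 87 tags in WT cells (105 with IFN-γ) and 58 in FLI1-KO cells (60 with IFN-γ). The FLI1-KO libraries were lower in both treatments, with ratios to WT of 0.774 (0.545 to 1.09) untreated and 0.736 (0.527 to 1.02) with IFN-γ, and both intervals hold 1. As fold enrichment the ratios were 1.11 and 0.868, so the direction between untreated libraries turned with the scale, over backgrounds of 8.04 tags in WT and 4.48 in sgFLI1. A TGANTCA match begins 38 bp after that summit. Farther into intron 1, a region had 28 tags in WT cells (31 with IFN-γ) and was not listed in the FLI1-KO libraries, where it would have had 23.9 to 24.3 tags when scaled and 13 to 14 would have sufficed. Its neighbour had 30 tags in WT cells (34 with IFN-γ) and 22 in FLI1-KO cells (17 with IFN-γ), a ratio of 0.644 (0.337 to 1.19) between the treated libraries. It is 1 of the 2 STAT regions past 1.5-fold lower in that pair, the other being the second STAT4 region. As fold enrichment this STAT5B ratio was 0.979, and that of sgFLI1 to WT was 1.37 where the tag ratio was 0.851, over backgrounds of 6.21 tags in WT and 2.90 in sgFLI1. In intron 5 a region had 23, 29, 24 and 19 tags in the same order.

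At STAT6 the second open region lay 16328 bp upstream of the canonical start, inside the span of longer STAT6 transcripts and 793 bp from a start of LRP1, a lipoprotein receptor gene, so it cannot be assigned to STAT6 alone. It had 112 tags in WT cells (122 with IFN-γ) and 61 in FLI1-KO cells (75 with IFN-γ). Both FLI1-KO libraries were below both WT libraries. The ratio of sgFLI1 to WT was 0.632 (0.455 to 0.871), at percentile 6.40 of shared peaks, while the median over chromosome 12 was a log2 ratio of 0.03. With IFN-γ it was 0.792 (0.586 to 1.06). As fold enrichment the untreated ratio was 0.875. The printed window has an AP1 match that begins 16 bp after the summit and a run of overlapping GC boxes. The remaining STAT6 regions had 10 to 16 tags, and 2 of them, 7610 and 27546 bp upstream, were listed in sgFLI1 alone. The regions 22030 and 27546 bp upstream lay outside the gene, in its upstream window, and cannot be assigned to STAT6 alone either.

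STAT3 had 7 peaks in WT and 4 in each other list. Toward its 3′ end, intron 20 had 60 tags in WT cells (78 with IFN-γ) and 46 in FLI1-KO cells (53 with IFN-γ), and intron 14 had 77, 71, 56 and 38. Between them, intron 15 had 60 tags in WT over a background of 18.4 and no peak in the other lists. Scaled from WT, these would have had 51.2 to 65.9 tags. With the WT background scaled to them as well, 30 to 36 tags would have been needed. Their own background at that place was not recovered, as no peak was listed, and a lower one would need fewer tags. In WT the background was also high under the flanking regions, at 11.2 and 14.7 tags, against 8.17 and 9.44 with IFN-γ. In FLI1-KO cells they were 4.87 and 5.92, and 5.57 and 5.04 with IFN-γ. As fold enrichment, intron 14 was 1.66 times as high in sgFLI1 as in WT, where the tag ratio was 0.844 (0.587 to 1.21). Intron 20 was 1.61 times as high as fold enrichment, where the tag ratio was 0.890 (0.592 to 1.33). The direction of both STAT3 regions between untreated genotypes therefore depends on the scale. The other STAT3 regions, in introns 1 and 2 and 10066 bp upstream, had 8 to 15 tags, and that of intron 2 was the 1 STAT region past 1.5-fold lower from sgFLI1 to sgFLI1-IFN-γ (13 and 8 tags, a ratio of 0.622, 0.223 to 1.62).

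Motifs were counted once per peak in 201 bp windows around the summit, on both strands. TGANTCA was present in 28.6% of 21 STAT peaks in WT cells, in 21.7% of 23 after IFN-γ, in 16.7% of 24 in FLI1-KO cells and in 23.5% of 17 after IFN-γ, against 21.9 to 24.3% of all peaks. GAAANNGAA was present in 1 STAT peak of each of the lists but sgFLI1-IFN-γ, which had 0, and in 5.47 to 9.09% of all peaks. CCGGAAG, a core that ETS factors such as FLI1 bind, was in 0, 0, 1 and 1 STAT peaks, against 3.63 to 3.95% of all peaks. The 1 region with it was the STAT6 promoter, 97 bp before the sgFLI1 summit. That region was listed in all 4 libraries, and the match lay inside each of its peaks. The summits of this wide peak were at 57112306 in WT and 57112027 in WT-IFN-γ, more than 100 bp from the match. In sgFLI1 and sgFLI1-IFN-γ they were at 57111915 and 57111835, so these counts follow the place of the summit. GGAAGGAA, the repeat, was found in sgFLI1 peaks only, 2 of 24 against 2.41% of that list. These had 16 tags at STAT6 and 7 at STAT5B, and 7 was the lowest count of that list. These matches are a description of letters and not of binding.

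The RefSeq promoter table, on GRCh38, gave 9 entries of 300 bp for the 6 STAT genes. The STAT5B entry had 82.0% G and C with 3 GC boxes, STAT2 had 66.3% with 3, STAT3 had 65.3% with 2 and STAT6 had 57.7% with 2. GGGCGG is in 45.0% of the 35116 promoters listed. The STAT4 entries had 56.7% and 49.0% G and C with 0 GC boxes, and the 3 STAT5A entries had 56.3%, 62.3% and 75.0% with 0, 0 and 1. The starts of STAT4 and STAT5A lay in no peak. Both STAT4 entries were below the 57.7% to 82.0% G and C of the genes with a covered start. The STAT5A entries of 62.3% and 75.0% lay within that range and that of 56.3% below it. GAAANNGAA and CCGGAAG were in 0 of the 9 entries, against 8.11% and 10.3% of those listed. TGANTCA was in 1, of STAT4, against 7.71%.

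The other genes of the JAK-STAT pathway were taken as a list of 41 (20 receptor chains, 4 kinases, IRF9 as the partner of STAT2, and 16 inhibitors). With IFN-γ in WT cells, 18 of 41 (43.9%) had a gained region in their window, against 32% of 19962 protein-coding genes, and 7 (17.1%) had a lost one, against 21.5%. In FLI1-KO cells 13 (31.7%) had a gained region, against 22.9%, and 15 (36.6%) a lost one, against 28%. Of the 6 STAT genes, 5 had a gained and 3 a lost region in WT cells, and 2 and 3 in FLI1-KO cells. The 2 with a gained region in FLI1-KO cells were STAT5A and STAT5B, through 1 peak that lies in both windows. Longer windows hold more peaks, and the median window was 66.0 kb for STAT genes, 55.1 kb for the pathway list and 37.5 kb for all genes, so these shares cannot be read against the background without that difference. IRF9 had neither.

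By role in WT cells, 9 of 20 receptor chains, 2 of 4 kinases and 7 of 16 inhibitors had a gained region. The gained regions near a start included TYK2, a JAK kinase that serves the STAT2 pathway, with 20 tags in WT cells after IFN-γ, no peak before it, and 23 tags in FLI1-KO cells (22 with IFN-γ). SOCS1, a feedback inhibitor of JAK kinases, had 68 tags in WT-IFN-γ, 2717 bp upstream of a start, and was not listed in the other 3 libraries. Its −log10 q was 5.42, against 45.2 for the STAT3 intron 20 peak of 78 tags in the same list. PTPN6, a phosphatase that removes phosphate from JAKs, had 86 tags in treated WT cells and 82 in untreated FLI1-KO cells and was not listed in the other 2 libraries, with a −log10 q of 7.30 in treated WT cells, against 8.29 for TYK2 with fewer tags. IFNGR2, a chain of the IFN-γ receptor, had 13 in WT-IFN-γ and 8 in sgFLI1. In FLI1-KO cells JAK3 gained a region of 15 tags and SOCS6 one of 25, both of which were also listed in untreated WT, with 14 and 29 tags.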

How the data were processed

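Reads were, by the methods of the study, trimmed by the authors (Trimmomatic), aligned to GRCh38 (Bowtie2 2.3.4.1), filtered by mapping quality and cleared of duplicates (Picard), and peaks were called by MACS2 2.1.2 at a q cutoff of 0.05. The methods name an IDR step, but whether a list came from 1 or pooled replicates, and from before or after IDR, is not stated, nor is a shift of tags for the transposase. A mapping filter can remove reads that STAT5A and STAT5B share. The deposited values of each peak are a score, a fold enrichment (ratio), a −log10 p, a −log10 q and the summit position, all as the authors' peak caller wrote them.

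From fold and p, a whole pileup and its background were recovered for 100% of peaks (tolerance 0.001 in −log10 p). Tag density was the library background divided by the extension length (249 to 274 bp). Intervals cover counting error only: exact conditional for ratios, Wilson for shares. Gained or lost peaks had no overlap of 1 bp. Regions merged overlapping peaks of the 4 lists, and starts and exons came from GENCODE. Motif windows reached 100 bp to each side of the summit. Of 9 RefSeq STAT promoter entries, 9 were identical to the genome used. The 6 genes, the pathway list, the motifs and the rule for named pathway genes (up to 6, with a gained region within 3 kb of a start, by −log10 q) were chosen with earlier results of these data known. The alternatives were a −log10 q of at least 5, an overlap of 50%, 3 kb upstream, fold enrichment in place of pileup and thinning to a common depth. Steps were tested on simulated data. Versions were 3.11.15 for Python, 1.17.1 for scipy, 2.3.3 for pandas, 2.4.6 for numpy and 3.10.9 for matplotlib.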

Additional observations from a re-analysis of the deposited data

Results flagged for a closer look

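The following values went opposite ways with IFN-γ in WT and in FLI1-KO cells. With 1 library a group the differences were not tested. The number of peaks at STAT2 was 1 higher with IFN-γ in WT cells and differed by -1 in FLI1-KO cells. At STAT5B the differences were 3 and -2, and over the 6 STAT genes they were 2 and -7. The whole lists also went opposite ways, from 59629 to 67470 peaks in WT cells and from 63203 to 59923 in FLI1-KO cells.

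Over all shared peaks the median log2 ratio of depth-scaled tags with IFN-γ was -0.07 in WT and -0.14 in FLI1-KO cells. Among shared STAT regions, that log2 ratio at the STAT2 promoter was 0.026 in WT and -0.40 in FLI1-KO cells. In the second region of STAT4 intron 14 it was 1.12 and -0.10, the widest gap of these, and in the third region of that intron -0.27 and 0.10. At the STAT5B promoter it was -0.11 and 0.13, in the neighbour region of STAT5B intron 1 0.045 and -0.36, and in STAT5B intron 5 0.20 and -0.32. At the site upstream of STAT6 near LRP1 it was -0.012 and 0.31. As fold enrichment, some of these pairs went the same way in WT and FLI1-KO cells. The ratios were 0.996 and 0.915 at the STAT2 promoter and 1.22 and 1.03 at the STAT5B promoter. They were 1.20 and 1.12 near LRP1 and 0.591 and 0.922 in the third STAT4 region. The second STAT4 region and the other STAT5B regions still went opposite ways. The tag ratio intervals held 1 except at the second STAT4 region in WT cells and the STAT2 promoter in FLI1-KO cells.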

How the results depend on the processing

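Of 60 values for 16 counts and medians under the alternatives, 43 stayed close and 17 moved. For counts, close was within 1.5 times. For medians it was within the counting error of the ratio of summed tags, which is not an error of the median itself. Among the 43, the median log2 ratio of WT-IFN-γ to WT was -0.0059 with pileups divided by the median of shared peaks, that of sgFLI1-IFN-γ to sgFLI1 was -0.05 there, and that of sgFLI1-IFN-γ to WT-IFN-γ was -0.05 with fold enrichment. With a −log10 q of at least 5 in every list, the lost STAT peaks were 3 in WT and 4 in FLI1-KO cells and the gained ones 0 in FLI1-KO cells, and 4 sgFLI1 peaks lacked a WT peak and 2 WT peaks an sgFLI1 peak. With that limit against any listed peak, gained and lost were 4 and 2 in WT cells and 0 and 3 in FLI1-KO cells, 3 sgFLI1 peaks lacked a WT peak, 2 WT peaks an sgFLI1 peak, 1 sgFLI1-IFN-γ peak a WT-IFN-γ peak and 5 WT-IFN-γ peaks an sgFLI1-IFN-γ peak. With an overlap of 50% of both peaks, 8 were lost in WT and 2 gained in FLI1-KO cells. With fold enrichment, the median log2 ratio was 0.20 for WT-IFN-γ to WT and 0.28 for sgFLI1 to WT, where all shared peaks had 0.09 and 0.13. The cause was not tested. Regions of 7 to 15 tags lie near the cutoff, so their listing in 1 library is weak evidence at this depth. No paired analysis was possible because each group held 1 library and no result came from a test.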
